A study of Mus musculus with 2 samples.

Results

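Mural cells are the contractile cells of the vessel wall, namely the pericytes around capillaries and the smooth muscle cells around larger vessels. They were examined here in 2 single-cell RNA libraries from mouse dorsal skin on postnatal day 3. A barcode counted as a member when it had at least 1000 unique molecular identifiers (UMIs, each standing for 1 captured RNA molecule) and at least 500 genes. It also needed under 15% mitochondrial UMIs, fewer than 100 keratin UMIs per 10000, at least 3 of the 5 markers Rgs5, Acta2, Myh11, Des and Notch3, and at most 2 of 6 endothelial genes (Pecam1, Cdh5, Kdr, Tie1, Emcn and Egfl7). The members were thus chosen by their measured marker, keratin and endothelial UMIs. The rule gave 100 members among 18186 barcodes, of which 10436 passed the quality limits and 2814 of those were keratin-low. The control library was labelled Wildtype and held 54 members. The other library was labelled miR-200b induced and held 46 members. Both libraries carried the treatment label Dox. The control therefore shares that exposure. What drives the induction, in which cells, and how many animals each library holds are not given in the sources used here. With 1 library per group there was no replicate and no test, and every interval below covers counting error only.

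Pericytes sit within the capillary basement membrane. They respond to PDGF-B from endothelial cells through the receptor PDGFRB, and Notch3 signalling helps set their fate together with that of vascular smooth muscle. Smooth muscle cells are distinguished by a contractile apparatus of smooth muscle actin (Acta2), smooth muscle myosin heavy chain (Myh11) and transgelin (Tagln). Many genes of that apparatus are controlled by serum response factor through a promoter element called the CArG box. The microRNA miR-200b belongs to a family that is best known in epithelia, where it represses Zeb1 and Zeb2.

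The sequence below, credited to RefSeq on GRCm38.p6, is the mature microRNA that names the induced genotype, with its seed (bases 2 to 8) in capitals. It lies at chr4:156055685-156055706 on the minus strand.
mmu-miR-200b-3p: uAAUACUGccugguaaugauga

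Promoters are shown first for cycle genes, whose lower levels are described further on. RefSeq promoters hold 250 bases before and 50 after each start, and both strands were searched for the CHR element TTTGAA, a motif of late cell cycle genes. Its reverse complement is TTCAAA. Capitals mark the motif, and for Cdk1, Top2a and Mki67, which hold 2 matches each, the one nearer the start is shown.
Ube2c, chr2:164769890-164769915, plus strand: agggttgcaaTTCAAAcgcgggcggc
Cdk1, chr10:69352912-69352937, minus strand: ccgcggcgagTTTGAAactgctggca
Top2a, chr11:99024197-99024222, minus strand: tagataaaggTTCAAAtgaaactagg
Cenpf, chr1:189688069-189688094, minus strand: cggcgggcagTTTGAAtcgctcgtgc
Mki67, chr7:135716462-135716487, minus strand: gccgttttggTTTGAAtcgggcgggc

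The CHR element was found in 8 of the 13 G2/M genes with a promoter in the table (61.5%), compared with 20.2% of all 27025 genes. For the contractile genes, the CArG box was searched by name on both strands, and one match is shown for Myl9, a gene described with the Myh11-high cells.
Myl9, chr2:156775293-156775322, plus strand: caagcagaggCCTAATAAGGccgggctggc

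The CArG box was in 4 of 20 contractile genes (20%), namely Myl9, Cnn2, Myl6 and Vcl, against 1.81% of all genes. None of these 4 passed the limit for a difference between the libraries that is used below, and no match was found for Acta2, Lmod1 or Ppp1r14a. Among the immediate early genes it was in 2 of 23 (8.70%), Egr2 and Zfp36. A match, or its absence, describes the letters of this window only. Myh11, Tagln and Actg2 were not matched in the table.

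The libraries differed in depth and in keratin background. Control members had a median of 12730 UMIs per cell (2746 to 25189) and induced members 5408 (1981 to 28389). Keratin UMIs had a median of 4.59 per 10000 in control members and 11.9 in induced members. The 2 libraries shared 74 barcodes, of which 0 were those of a member in both. Doublets were not removed, and 2 members in each library lay among the 7% of barcodes with the highest doublet scores. The part that depth and keratin background have in the differences below was not tested.

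The class was almost wholly Rgs5-positive. Rgs5 and the 6 endothelial genes are part of the rule, so their values describe the selection and do not check it. Rgs5, a regulator of G protein signalling found in pericytes and vascular smooth muscle, was detected in 53 of 54 control and 46 of 46 induced members. Its per-cell level in control members had a lowest value of 0, a median of 51.2 and a highest value of 151 UMIs per 10000. In induced members it ran from 4.90 through a median of 46.4 to 203. The 2 ranges overlapped, and 1 induced cell lay above the highest control cell. Pdgfrb, the PDGF receptor of mural cells, was detected in 52 control and 44 induced members. Of the 6 endothelial genes in the rule, Egfl7 alone had UMIs in members, at 10.9 and 10.4 CPM (UMIs per 1000000).

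Genes of the dermal sheath and dermal papilla, mesenchymal cells that wrap and feed the hair follicle, were scarce. Of 16 such genes, 8 had no UMI in control members and 10 had none in induced members. Mef2c, a transcription factor also used by vascular smooth muscle, was the single gene of that list whose mean reached 20 CPM. No member was Myh11-high without being Rgs5-high, and 0 of 54 and 0 of 46 allow shares of up to 5.56% and 6.52%. An induced member with 7.28 Rgs5 and 36.4 Myh11 UMIs per 10000 lay near the limit of 5 Rgs5 UMIs per 10000 used below. A cell without Rgs5 enters only with at least 3 of the remaining markers, so the rule may leave out dermal sheath cells. A dermal sheath class was not seen with these limits, and the cells are called mural cells here.

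Just outside the limit of 3 markers lay 34 control and 9 induced keratin-low cells with 2 markers. Their summed Rgs5 levels were 3.83 and 207.1 CPM. Myh11 was detected in 13 control and 1 induced of these cells, Acta2 in 9 and 8, and Des in 22 and 1. Their Col1a1 levels were 5414.5 and 954.4 CPM. Just inside, 12 control and 17 induced members with 3 markers had 3965 and 3603 CPM of Rgs5. The Col1a1 levels of those members were 2895.5 and 49.6 CPM.

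Some members stood apart. A control member without Rgs5 UMIs held 115 of the 120 UMIs of Lum, a fibroblast proteoglycan, and 966 UMIs per 10000 of the fibroblast list. An induced member with 4.90 Rgs5 UMIs per 10000 had 93.1 keratin UMIs per 10000 and 22457 UMIs. Another induced member had 12 Rgs5 and 73.6 keratin UMIs per 10000 with 28389 UMIs, the deepest of all members. Values over the 51 control and 39 induced members with at least 20 Rgs5 UMIs per 10000 are given where a call is lost without the cells below that level.

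Members made up 3.89% of keratin-low control cells (2.93 to 5.04) and 3.23% of keratin-low induced cells (2.37 to 4.28). The log2 ratio was -0.27, with a counting interval of -0.87 to 0.33 that spans 0. Against endothelial cells of the same libraries the balance was nearly equal, with members at 41.9% and 41.4% of the 2 classes together. The suspension was mixed from epidermal and dermal cells in a set ratio, which can set such shares. Fibroblasts, in comparison, were 44.1% and 22.5% of keratin-low cells.

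Members were split at 2 Myh11 UMIs per 10000 and at 5 Rgs5 UMIs per 10000. Rgs5-high cells were 98.1% of control members and 97.8% of induced members. Myh11-high cells, all of them also Rgs5-high, were 19 of 54 control members, 35.2% (22.7 to 49.4), and 22 of 46 induced members, 47.8% (32.9 to 63.1). The intervals overlapped. In each library 23 members had no Myh11 UMI. Thus 31 of 54 control and 23 of 46 induced members had a Myh11 UMI, a smaller share in the induced library. The limit of 2 per 10000 needs fewer UMIs in a shallow cell. Between 2 and 4 per 10000, just above that limit, lay 4 control and 7 induced members.

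**Figure D1:**
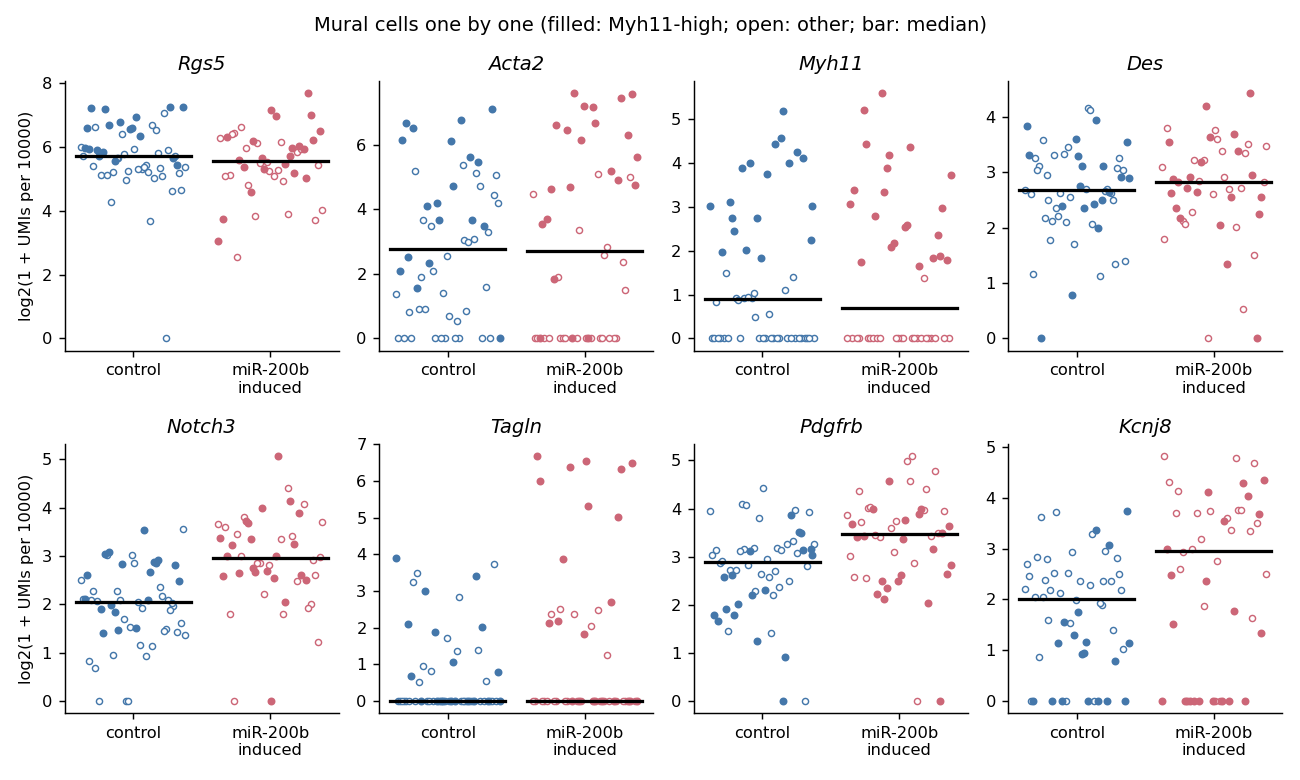
Level of 8 mural genes in each member, as log2(1 + UMIs per 10000), with 54 control cells and 46 induced cells; filled points are Myh11-high members and bars are medians. Rgs5 levels overlap between the libraries, Notch3 and Pdgfrb medians sit higher in the induced library, and the highest Tagln levels are in Myh11-high induced cells.

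The receptor and contractile markers of the rule differed in how far they stood apart. Notch3, the Notch receptor of mural cells, had a median of 3.16 UMIs per 10000 in control members (0 to 10.7) and 6.73 in induced members (0 to 32.5). Most induced cells were above the control median, though the ranges overlapped. Summed over members, Notch3 was at 354.1 CPM (312.3 to 400) in the control and 674.9 CPM (583.3 to 776.9) in induced cells, with a log2 ratio of 0.93 (0.65 to 1.20). Acta2 was at 1757 and 3782 CPM, a log2 ratio of 1.11 (0.99 to 1.22). Its medians per cell were close, at 5.94 and 5.61 UMIs per 10000, while its highest cells reached 136 and 193. The summed difference thus lay in the cells with most Acta2, and the log2 ratio of CPM plus 5 was 0.84 as a mean over cells, 0.78 with the rule applied after thinning, 0.72 with the subsets given the same proportions in both libraries and 0.48 over members with fewer than 2 G2/M UMIs. Myh11 was at 382.8 and 567.1 CPM (log2 ratio 0.57, 0.28 to 0.85). Desmin (Des), an intermediate filament, was at 571.5 and 605.3 CPM, with an interval of -0.18 to 0.34. Rgs5 was at 5899 and 4881 CPM, a log2 ratio of -0.27 (-0.36 to -0.19). These 5 genes chose the members, so their values are a description.

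Levels were compared over the 6505 genes whose mean reached 20 CPM, on the log2 scale of CPM plus 5, where a ratio of at least 1 or at most -1 is called higher or lower. By that limit 9.16% of genes were higher and 9.96% lower in induced members, with a median of -0.05 over all genes. With the added demand that the counting intervals lie apart, the shares were 6.53% and 6.92%. Among 20 contractile genes 5 were higher and 0 lower, and the list's median was 0.44. Tagln, an actin-binding protein of smooth muscle (chromosome 9, 45929619 to 45936058), was at 150.4 CPM (123.6 to 181.3) in control members and 1614 CPM (1471 to 1768) in induced members. It was detected in 20 and 19 members. In the induced library 9 of those cells, all Myh11-high, had at least 10 UMIs per 10000. Lmod1, an actin filament nucleator of smooth muscle, was at 16.4 and 170.5 CPM. Actg2, the enteric-type smooth muscle actin, was at 2.73 and 111 CPM, found in 1 control and 5 induced cells. Ppp1r14a, an inhibitor of myosin phosphatase, was at 57.4 and 132.2 CPM. As a mean over cells its log2 ratio was 0.70, within the limit. Caldesmon (Cald1), among the most abundant of the list, was at 1433 and 1677 CPM, a log2 ratio of 0.23 (0.07 to 0.38).

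Those contractile differences were then split by Myh11. The split depends on depth, since fewer Myh11 UMIs pass its limit in a shallow cell. Of Myh11-low cells, 12 of 34 in the control and 1 of 23 in the induced library held a Myh11 UMI. Their Myh11 levels were 40.6 and 7.39 CPM, so the Myh11-low subsets were not alike. The part of depth in the values below was not tested. In Myh11-high members Acta2 was at 4085 CPM in the control and 8009 CPM in the induced library, while in Myh11-low members it was at 763.3 and 361.9 CPM. Tagln was at 256.4 and 3487 CPM in Myh11-high members and at 107.6 and 88.6 CPM in Myh11-low members. By this split the higher Tagln sum was in Myh11-high and not in Myh11-low cells. There it was uneven, with a median of 3.44 and a highest value of 102 UMIs per 10000 in induced cells, 9 of 22 cells at 10 or more, and 64.4% of its UMIs in 4 cells. In control Myh11-high cells the median was 0, the highest value 14.1, and 1 of 19 cells reached 10. Tpm2, a tropomyosin, was at 554.2 and 125.6 CPM in Myh11-low members and at 1237 and 1343 CPM in Myh11-high members. Over the 20 contractile genes the median log2 ratio of induced over control was -0.26 in Myh11-low and 0.69 in Myh11-high members. The difference between those medians was not tested, since each rests on 1 library per group.

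Within each library the Myh11-high members were set against Myh11-low Rgs5-high members. The subsets were cut on a measured gene, so this too is a description. The control subset had 19 cells and the others 22 to 34. In the control library 4.67% of all genes were higher and 7.15% lower in Myh11-high cells, and in the induced library 9.55% and 17.0%. The contractile list had 9 of 20 genes higher in the control and 16 of 20 in the induced library, with medians of 0.75 and 1.46, and 9 were higher in both. Myl9, a regulatory myosin light chain, was at 619.2 and 1750 CPM in control cells and at 288.1 and 2793 CPM in induced cells, Myh11-low first. Among 22 pericyte genes 4 were lower in control and 6 in induced Myh11-high cells, with 3 lower in both and medians of -0.34 and -0.73. Kcnj8, the pore of the pericyte ATP-sensitive potassium channel, was at 430.4 CPM in Myh11-low and 216 CPM in Myh11-high control cells, and at 1019 and 447.5 CPM in induced cells. Abcc9, which encodes the sulphonylurea receptor of that channel, went the same way, at 535.9 and 251.9 CPM in control cells and 1093 and 455.2 CPM in induced cells.

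**Figure D2:**
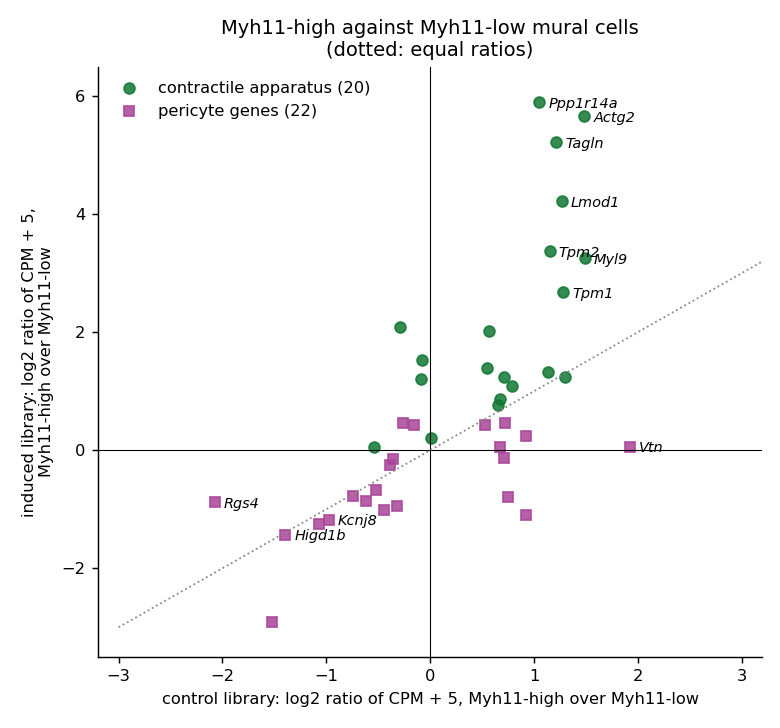
Log2 ratio of CPM plus 5, Myh11-high over Myh11-low members, in the control library (x axis) and the induced library (y axis), for 20 contractile genes (circles) and 22 pericyte genes (squares). Contractile genes such as Tagln, Actg2 and Ppp1r14a lie far above the dotted line of equal ratios, and Kcnj8 and Higd1b lie below 0 on both axes.

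Outside the lists, the genes with the largest mean of the libraries' ratios towards Myh11-high cells, with the same sign in both, were Nrip2, Mustn1, Gja5, Crispld2, Fmod, Rergl, Car4, Tesc, Emb, Sorbs2, Nav2 and Gadd45g. Mustn1, a small muscle and bone protein, was at 6.09 and 197.9 CPM in control cells and at 29.5 and 756.1 CPM in induced cells, Myh11-low first. Gja5, a gap junction protein of arteries, was at 6.09 and 153 CPM in control cells. In induced cells Gja5 had 0 UMIs in Myh11-low and 115.7 CPM in Myh11-high cells. Towards Myh11-low cells the genes were Fjx1, Axin2, Aebp1, Capg, Htr7, Tmem100, Sh3glb2, Dhrs1, Emp1, Nkap, Nkd2 and Rbbp8. Of these, Htr7 (-0.56), Tmem100 (-0.80), Dhrs1 (-0.77) and Rbbp8 (-0.40) were within the limit in the control library. Fjx1 changed sign in the induced library, from -2.08 to 2.05, with at least 4 markers. Axin2 and Nkd2, both feedback inhibitors of Wnt signalling, were at 50.8 and 62.9 CPM in Myh11-low control cells and at 9 and 4.5 CPM in Myh11-high ones. Emp1, an epithelial membrane protein, was at 284.2 and 63 CPM in control cells and at 280.7 and 61.7 CPM in induced cells. Its ratio was nearly equal in the libraries.

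Pericyte genes were more often higher than lower in induced members, with 7 of 22 higher and 1 lower and a median of 0.70. Kcnj8 was at 355.5 CPM in control and 702.7 CPM in induced members, a log2 ratio of 0.98 (0.71 to 1.25), and Abcc9 at 437.5 and 748 CPM. The genes past the limit included Foxs1, a forkhead factor of pericytes, at 36.9 and 170.5 CPM. Rgs4, a G protein regulator, was at 95.7 and 240.1 CPM, and its ratio was 0.88 with at least 4 markers. Steap4, a metalloreductase, had 1 UMI in control members and 114.8 CPM (79 to 161) in induced members, in 10 cells. Higd1b, a mitochondrial protein used as a pericyte marker, was the lower gene, at 649.4 and 313.1 CPM (log2 ratio -1.05, -1.39 to -0.72). The Higd1b ratio was -0.82, within the limit, over members with at least 20 Rgs5 UMIs per 10000. Pdgfrb was at 669.9 and 967.1 CPM. The most abundant genes of the list were within the limit, with Ebf1 at 1407 and 1719 CPM and Ndufa4l2 at 1191 and 1388 CPM. The pericyte list had a median of 0.85 in Myh11-low and 0.62 in Myh11-high members, and that difference was not tested.

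In the Notch pathway 1 of 10 genes was higher and 0 lower, with a median of 0.15. The ligand Jag1 was at 86.1 and 142.6 CPM and the receptor Notch1 at 91.6 and 66.1 CPM. Among targets, Nrarp was at 173.6 and 254 CPM, while Hey2 (47.9 and 38.3 CPM) and Heyl (86.1 and 62.6 CPM) had ratios below 0 with modest counts. Dtx3, a Deltex family ubiquitin ligase, was the gene past the limit, at 117.6 and 320.1 CPM. The targets of the list therefore lay on both sides of 0.

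Of 14 growth factor and guidance genes 5 were higher and 0 lower, with a median of 0.74. Angpt2, the ligand that antagonises Tie2 on endothelial cells, was at 49.2 CPM (34.5 to 68.1) and 260.9 CPM (205.2 to 327.1), in 25 and 34 cells. Tgfb3 was at 2.73 and 80 CPM and Tgfb2 at 46.5 and 118.3 CPM, both ligands of the TGF-beta pathway. The Tgfb2 ratio was 0.82, within the limit, over members with at least 20 Rgs5 UMIs per 10000. S1pr3, a sphingosine phosphate receptor that promotes contraction, was at 64.3 and 142.6 CPM, and its ratio was 0.90 with at least 4 markers. Igf2 had 0 UMIs in control members and 41.7 CPM in induced members. Pdgfa was at 303.5 and 313.1 CPM, a difference within its counting interval (-0.32 to 0.40).

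Genes for calcium, potassium and cyclic nucleotide handling had 5 of 16 higher and 0 lower, with a median of 0.66. Rgs16, a regulator of G protein signalling (chromosome 1, 153740349 to 153745468), was at 41 CPM (27.7 to 58.6) in control and 594.9 CPM (509.1 to 691) in induced members. It was detected in 20 and 19 cells, and 50 of its 171 induced UMIs were in 1 cell. Without the cell with most UMIs in each library its log2 ratio of CPM plus 5 went from 3.70 to 3.42. Stim1, the calcium sensor of the endoplasmic reticulum, was at 38.3 and 135.7 CPM. Prkg1, the cyclic GMP-dependent kinase of smooth muscle, was at 20.5 and 62.6 CPM, and Gucy1a1, a subunit of the nitric oxide receptor, at 741 and 904.5 CPM.

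In the basement membrane and matrix list, of 28 genes 2 were higher and 6 lower, with a median of -0.25. Col4a1 and Col4a2, chains of basement membrane collagen, had ratios above 0 within the limit, with Col4a1 at 2200 and 3135 CPM (log2 ratio 0.51, 0.39 to 0.63) and Col4a2 at 1157 and 1593 CPM. Col18a1, at -0.19, and the laminin Lamb1, at -0.51, were below 0 on the scale of CPM plus 5. Col3a1, a fibrillar collagen, was lower, at 3854 CPM (3713 to 3999) in control and 768.8 CPM (670.8 to 877.2) in induced members. Periostin (Postn), a matricellular protein, was at 1025 and 219.2 CPM. Col1a1 was at 751.9 and 132.2 CPM. Col1a2, Dcn and Lum were the remaining genes past the limit. Lum was at 164.1 CPM in the control and had 0 UMIs in the induced library, at least 15.7-fold lower over the group. The control member with fibroblast genes held 345 of the 550 control UMIs of Col1a1, 701 of the 2819 of Col3a1 and 115 of the 120 of Lum. Over members with at least 20 Rgs5 UMIs per 10000 the log2 ratio was -1.70 for Col3a1, -2.08 for Postn, -0.92 for Col1a1, -0.37 for Col1a2 and -1.29 for Lum. Dcn, a proteoglycan with 68 of its 76 control UMIs in 1 cell, turned there to 0.81. Lum was within the limit, at -0.37, without cells with markers of other cells. So 3 of the 6 lower calls were lost with the Rgs5 limit, and the list's median was -0.03. Fibroblasts also had less Col3a1 in the induced library, at 25102 and 12948 CPM, and endothelial cells had 689.5 and 25.1 CPM. Mgp, an inhibitor of calcification, was higher, at 10.9 and 327 CPM, but in 1 control and 9 induced cells.

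**Figure D3:**
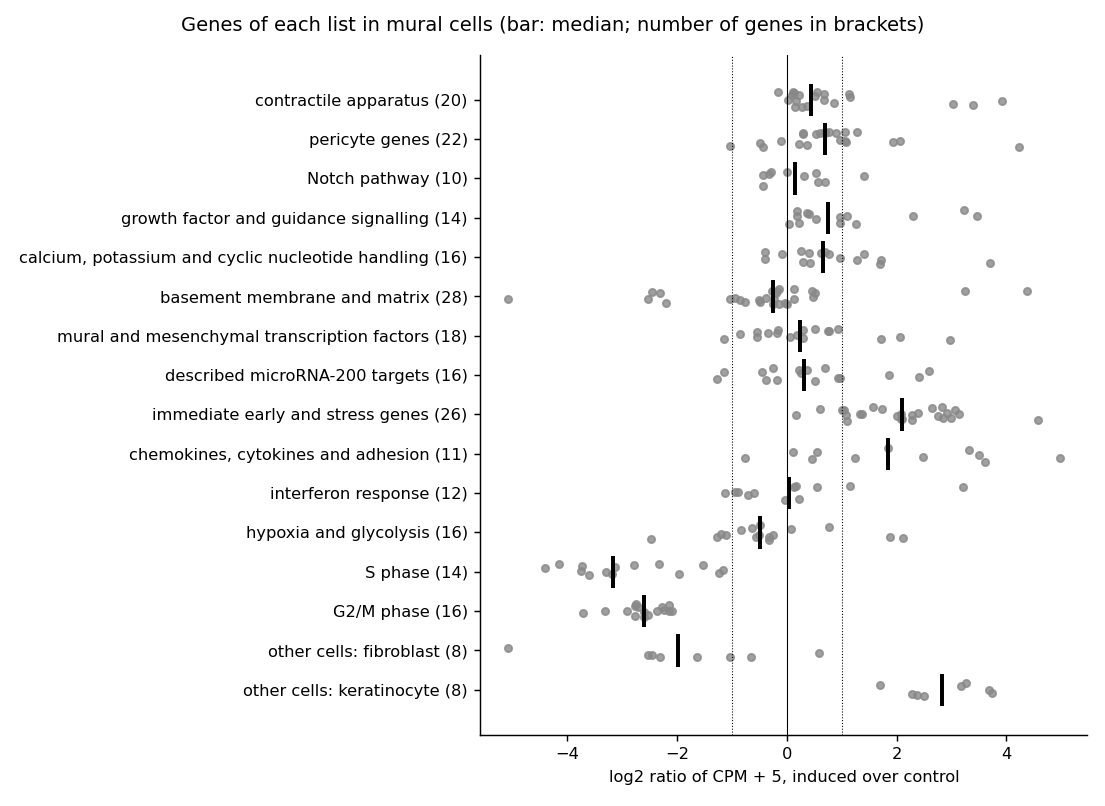
Log2 ratio of CPM plus 5 (induced over control) of each gene entered, 1 row per list, with a bar at the list's median and dotted lines at the limits of -1 and 1. The S phase and G2/M rows lie wholly below -1, with medians of -3.16 and -2.59, and the immediate early row is centred on 2.09.

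Cell cycle transcripts were lower in the induced library throughout both lists. S phase genes replicate DNA, and G2/M genes drive chromosome segregation. All 14 S phase genes entered were lower in induced members (median -3.16), and all 16 G2/M genes were lower (median -2.59). Each cell was thinned once at random to 2000 UMIs, and a cell counted as G2/M when 2 or more UMIs of the 16 genes were then left. In the control library 22 of 54 members did, 40.7% (27.6 to 55), and in the induced library 1 of 45, 2.22% (0.0562 to 11.8). The log2 ratio of the shares was -4.20 (-9.56 to -1.57). Without thinning the shares were 57.4% and 8.70%. Control G2/M cells were found in both subsets, at 14 of 34 Myh11-low and 8 of 19 Myh11-high members. In the induced library 0 of 22 cells in each subset were G2/M, which allows up to 13.6%. Without thinning, 3 of 22 Myh11-high induced cells were.

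The G2/M signal of the induced library came mostly from a single cell. Of the 152 G2/M UMIs in its members, 136 were in the deep cell with few Rgs5 UMIs and many keratin UMIs. In members with at least 20 Rgs5 UMIs per 10000, 41.2% of 51 control cells and 0 of 38 induced cells were G2/M, which allows up to 7.89%, and the G2/M list's median was -4.77. Mki67, the proliferation antigen, was at 429.3 CPM in control members in 23 cells and at 59.1 CPM in induced members in 1 cell. Top2a, the topoisomerase that untangles replicated DNA, was at 522.3 CPM in 28 control cells and 114.8 CPM in 3 induced cells. Ube2c, a ubiquitin carrier of the anaphase-promoting complex, was at 427.9 and 27.8 CPM. Tyms, which makes thymidylate for DNA synthesis, had 128 UMIs in 28 control cells and 1 UMI in the induced library. Uhrf1, which maintains DNA methylation at replication, had 61 UMIs in 22 control cells and 0 in induced cells, at least 7.99-fold lower.

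Endothelial cells of the same libraries differed in the same way. Their thinned G2/M shares were 34.7% (24 to 46.5) and 3.17% (0.387 to 11), and those of fibroblasts 10.2% (7.89 to 12.9) and 4.47% (2.4 to 7.52). The medians of the G2/M list were -2.73 in endothelial cells and -0.42 in fibroblasts. Keratin-rich cells (at least 100 keratin UMIs per 10000) were lower too. Their summed G2/M list was at 1118 and 451.5 CPM and their S phase list at 1239 and 496.6 CPM, control first. Whether mural cells differed from any of these classes in this was not tested.

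**Figure D4:**
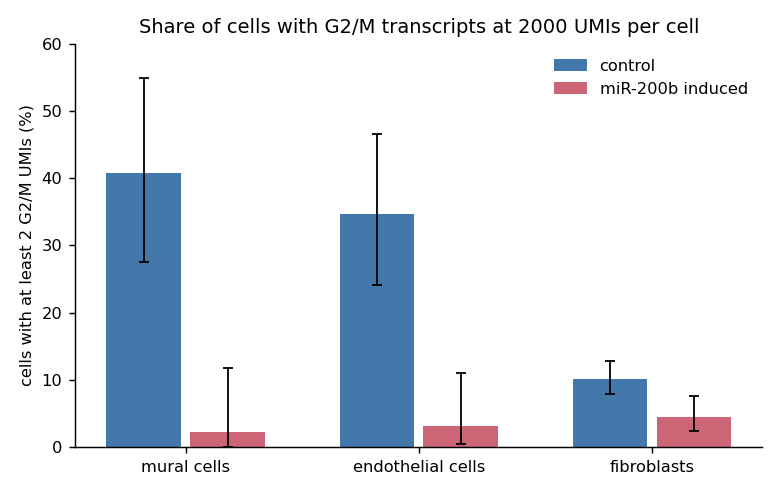
Share of cells called G2/M (2 or more UMIs over 16 genes) after thinning to 2000 UMIs, in mural cells, endothelial cells and fibroblasts of each library, with exact 95% counting intervals. Mural cells stand at 40.7% in the control and 2.22% in the induced library, and endothelial cells at 34.7% and 3.17%.

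Immediate early and stress genes, which cells switch on soon after stimulation or heat, went the other way. Of 26 such genes 24 were higher and 0 lower, and the median was 2.09. Of these, 22 were higher over members with at least 20 Rgs5 UMIs per 10000. Over members with fewer than 2 G2/M UMIs 19 were higher, with a median of 1.68. Fos, a subunit of the AP-1 factor, was at 1109 CPM (1034 to 1188) in control and 2811 CPM (2620 to 3012) in induced members. The Fos ratio was 0.86, within the limit, over members with fewer than 2 G2/M UMIs. Its AP-1 partner Jun was at 689.1 and 2296 CPM. Atf3, a stress transcription factor, was at 61.5 and 581 CPM, and Klf2, a factor known from endothelium under flow, at 15 and 473.1 CPM. The nuclear receptor Nr4a1 was at 24.6 and 243.5 CPM and Gadd45b, a stress-induced growth regulator, at 60.2 and 514.9 CPM. The 2 genes within the limit were Fosb, at 467.6 and 525.3 CPM, and Myc. The difference was uneven over cells. Klf2 was detected in 8 control and 14 induced members, and in Myh11-high induced cells 90.3% of its UMIs were in 4 cells. In those cells Fos had a median of 27 and a highest value of 155 UMIs per 10000, against 14.4 and 48.1 in Myh11-high control cells. The list's median was 0.82 in endothelial cells and 1.57 in fibroblasts. In keratin-rich cells (at least 100 keratin UMIs per 10000) Fos was instead lower in the induced library, at 1639 and 1188 CPM.

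Chemokine, cytokine and adhesion genes had 7 of 11 higher and 0 lower, with a median of 1.84. Cxcl1, a neutrophil chemokine, was at 21.9 CPM in 8 cells and 264.4 CPM in 17 cells. Ccl2, a monocyte chemokine, was at 6.84 and 128.7 CPM, with 25 of its induced UMIs in 1 cell. All 16 Ccl7 UMIs were in 1 induced cell. Cxcl14 was at 5.47 and 323.5 CPM, but 66 of its 93 induced UMIs were in 1 cell, and over members with at least 20 Rgs5 UMIs per 10000 it was at 5.76 and 23.7 CPM. With members limited to fewer than 10 keratin UMIs per 10000, 52 and 18 cells, the list's median was 0.27. There Ccl2 (0.28) and Ccl7 (0 UMIs in both libraries) were within the limit, and Il6 changed sign from 2.48 to -0.63.

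**Figure D5:**
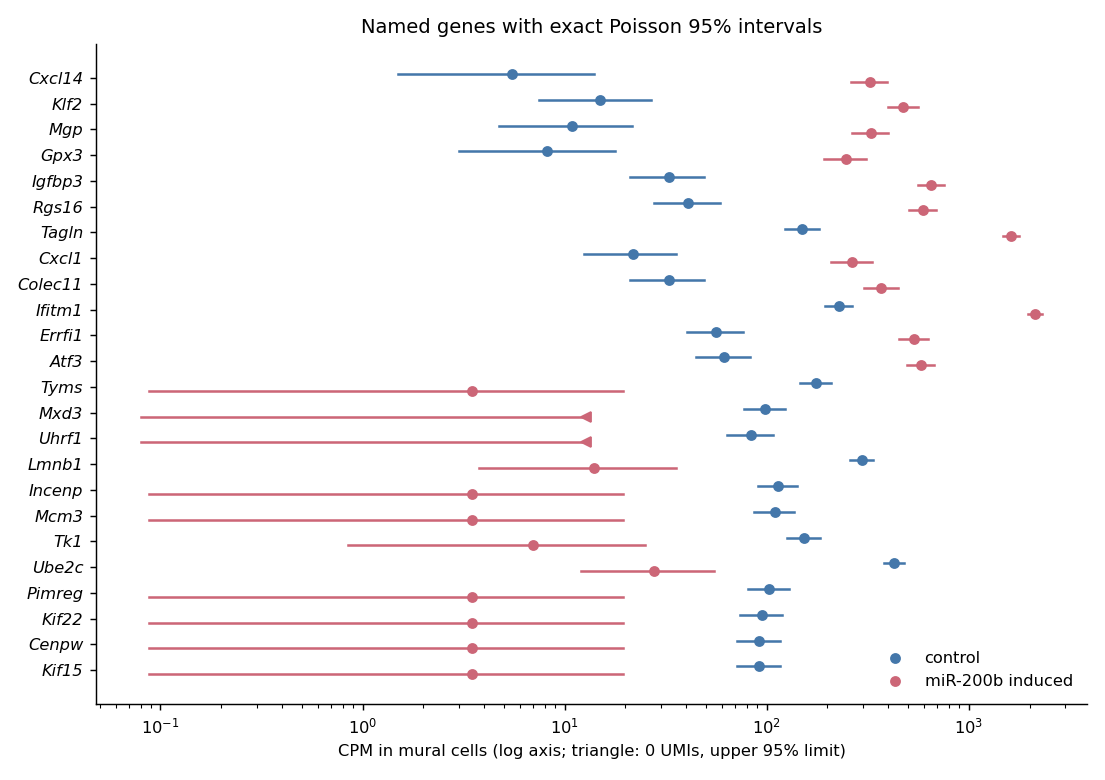
Level of the 24 genes named by size, in CPM on a log axis with exact Poisson 95% intervals, in control and induced members; a triangle marks 0 UMIs at its upper limit. The 12 upper genes have higher induced values, such as Tagln at 1614 against 150.4 CPM, and the 12 lower genes are at or under 27.8 CPM in the induced library.

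Among genes with at least 60 UMIs that were neither markers of the rule nor of other cells and that met the remaining limits for naming, the 12 with the largest higher ratios were Cxcl14, Klf2, Mgp, Gpx3, Igfbp3, Rgs16, Tagln, Cxcl1, Colec11, Ifitm1, Errfi1 and Atf3. Ifitm1, a membrane protein of the interferon-induced family (chromosome 7, 140967221 to 140969825), was at 227 CPM (193.7 to 264.2) in control and 2140 CPM (1974 to 2316) in induced members. It was found in 34 and 37 cells, with medians of 2.23 and 30.3 UMIs per 10000 in Myh11-low cells. Igfbp3, a carrier of insulin-like growth factors (chromosome 11, 7206086 to 7213923), was at 32.8 and 650.6 CPM in 13 and 30 cells. Colec11, a collectin of innate immunity (chromosome 12, 28594173 to 28623377), was at 32.8 and 368.8 CPM in 10 and 29 cells. Errfi1, a feedback inhibitor of the EGF receptor, was at 56.1 and 535.8 CPM in 21 and 40 cells, and Gpx3, an extracellular glutathione peroxidase, at 8.2 and 247 CPM. Cxcl14 was at 444.6 and 796.7 CPM in keratin-rich cells, above its levels in members. It was not named again when those cells set the limit on level. In fibroblasts 11 of these 12 higher genes were higher by the same limit, Colec11 being the exception, and in endothelial cells 2 were, Mgp and Tagln. Under the same limits, which leave out Lum and Fabp4, the 12 with the largest lower ratios were Tyms, Mxd3, Uhrf1, Lmnb1, Incenp, Mcm3, Tk1, Ube2c, Pimreg, Kif22, Cenpw and Kif15, most of them genes of DNA replication and mitosis. All 12 were lower by the limit in endothelial cells too, and 1, Mxd3, in fibroblasts.

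Among described targets of the miR-200 family, 3 of 16 were higher and 2 lower, with a median of 0.31. Zeb1, a repressor of epithelial genes with 5 matches to the seed in its annotated 3′ UTR, was at 90.2 CPM (69.8 to 114.8) in control members and 38.3 CPM (19.1 to 68.5) in induced members. Its log2 ratio was -1.24 (-2.31 to -0.31), on 66 and 11 UMIs. Over members with at least 20 Rgs5 UMIs per 10000 the Zeb1 ratio was -0.96, within the limit. Zeb2, also with 5 matches, was at 1088 and 963.7 CPM, with an interval of -0.38 to 0.02. In endothelial cells Zeb1 was at 119.9 and 124 CPM and in fibroblasts at 64.4 and 54 CPM. Sec23a, a coat protein of secretory vesicles with 3 matches, was at 49.2 and 17.4 CPM, and its ratio was -0.79 over members with at least 20 Rgs5 UMIs per 10000. Both lower calls of the list were thus lost there, and 0 of 16 genes were lower. The higher genes were Lox, a collagen crosslinking enzyme, and the receptor Flt1, both without a match, and Klf9, a stress hormone responsive factor with 1 match, at 176.4 and 654 CPM. Over all genes the median was 0.01 for 1087 genes with a seed match and -0.06 for 5317 without, and 7.36% and 10.6% of them were lower.

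Gm13648, the transcript that spans the microRNA locus, had 0 UMIs in control members, which allows up to 4.10 CPM. In induced members it had 39 UMIs, 135.7 CPM (96.5 to 185.5), in 8 of 46 cells, and 22 of them were in 1 cell. Keratin-rich cells of that library had 529.1 CPM and endothelial cells 22.6 CPM. Over members with at least 20 Rgs5 UMIs per 10000 the level was 33.1 CPM. The libraries do not capture mature microRNA, and whether these UMIs arose in mural cells was not tested.

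Markers of other cells differed in parallel. All 8 keratinocyte genes entered were higher in induced members (median 2.83), and the summed level of the 12-gene list was 191.4 CPM in control and 1479 CPM in induced members, ranging per cell from 0 to 25.5 and from 0 to 55.7 UMIs per 10000. The 2 deep induced members with few Rgs5 UMIs held 125 and 111 of the 425 induced UMIs of that list, 55.5%. Over members with at least 20 Rgs5 UMIs per 10000 the 8 genes were still higher, with a median of 1.71. Other alternatives lost some of these calls. With fewer than 10 keratin UMIs per 10000, Fxyd3 changed sign from 3.75 to -1.25 and Perp was at 0.81. Dsp was at 0.80 with at least 4 markers, and Jup was at 0.80 with the rule applied after thinning. In keratin-rich cells the same sum was 14685 and 18272 CPM. Of the 8 fibroblast genes entered 6 were lower (median -1.98), 3 over members with at least 20 Rgs5 UMIs per 10000, with per-cell sums of 6.72 to 966 and 1.04 to 73.6 UMIs per 10000. The immune list had 11 and 10 of 12 genes at 0, with Ptprc and Tyrobp at 0 in both libraries. The skeletal muscle genes Pax7, Myod1 and Myog were at 0 in both. The part of these markers in the differences above was not tested.

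Fabp4, a fatty acid carrier of adipocytes and capillary endothelium, was at 13.7 CPM in 5 control members and 3242 CPM in 32 induced members, a log2 ratio of 7.89 (7 to 8.95). Myh11-high induced cells had a median of 21.5 UMIs per 10000 and Myh11-low ones 1.37. Of the 10 adipocyte genes 7 were at 0 in each library, among them Adipoq, Plin1 and Cfd. Lpl, lipoprotein lipase, lay on the other side, at 190 CPM (159.8 to 224.4) in 40 control and 111.3 CPM (76.1 to 157.2) in 19 induced members, a log2 ratio of -0.77 (-1.37 to -0.21). Endothelial cells had 5679 and 9042 CPM of Fabp4, fibroblasts 11.7 and 1154 CPM, and keratin-rich cells 23.9 and 9.96 CPM.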

How the data were processed

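Dorsal skin of postnatal day 3 was dissociated and loaded on a 10x Genomics 3′ v3.1 platform, 1 library per group, per the labels' protocols. The deposited values are raw counts of UMIs for 32285 genes and were used as deposited. Cell Ranger 6.0.0 and the build mm10 are named in the submitters' processing notes. Cells, markers and gene lists were chosen with earlier results of these data known. UMIs of members were summed per library and scaled to counts per 1000000 (CPM), with exact Poisson 95% intervals. Ratios have exact conditional binomial intervals and shares Clopper-Pearson intervals. A count of 0 allows up to 3 counts. Nothing in the labels says that the libraries hold separate animals.

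Genes entered at a mean of 20 CPM, and ratios used CPM plus 5. Genes were named among those with at least 60 UMIs, 50 CPM in the higher library, intervals that do not overlap and a level at least that of keratin-high cells (1000 keratin UMIs per 10000), taking 12 in each direction and leaving out marker, sex-linked, mitochondrial, ribosomal and haemoglobin genes. From each list, up to 4 genes by difference and 2 by level with at least 50 CPM were named. Further genes were named after their values were seen, namely Myl9, Tpm2, Ppp1r14a, Kcnj8, Higd1b, Hey2, Heyl, Igf2, Col4a1, Col4a2, Postn, Col18a1, Lamb1, Fosb, Myc, Sec23a, P4ha2, Bnip3, Prrx1, Twist1, Psmb8, Gm13648, the genes of promoter matches, those given for a changed sign and the genes given as at 0. Perp, Dsp and Jup were also named after their values were seen, for calls lost under an alternative. Endothelial cells and fibroblasts were keratin-low cells with at least 3 of 6 and 3 of 5 of their own genes and at most 2 mural markers. The planned contrast with Myh11-high, Rgs5-low cells had no cells, so Myh11-high members were set against Myh11-low ones. The control subset of 19 cells missed the planned minimum of 20 and is given all the same. The interval and level functions were checked on simulated Poisson counts. Those had no variation between cells, so the check does not cover the unevenness between cells seen here. Seed matches (CAGTATT) were counted in 3′ UTRs of GENCODE vM21. Python 3.11.15, numpy 2.4.6, scipy 1.17.1 and pandas 2.3.3 were used, with scanpy 1.11.5 for doublet scores, whose automatic limit marked under 0.5% of barcodes and was not used.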

Additional observations from a re-analysis of the deposited data

Results flagged for a closer look

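Ppp1r14a, the inhibitor of myosin phosphatase, had a higher summed level in induced mural cells and a lower one in induced endothelial cells and fibroblasts. In mural cells the log2 ratio of CPM plus 5 was 1.14, both beside endothelial cells and beside fibroblasts. It was at 15.2 and 2.51 CPM in endothelial cells and at 141.8 and 41.5 CPM in fibroblasts, control first. In mural cells it was detected in 22 control and 7 induced members. All 38 induced UMIs were in Myh11-high members, and in Myh11-low members it was at 36.5 CPM in the control and had 0 UMIs in the induced library. The mural ratio was within the limit as a mean over cells (0.70), with the same subset mix in both libraries (0.92) and over members with fewer than 2 G2/M UMIs (0.21). That these classes differ was not tested, as every class has 1 library per group.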

How the results depend on the processing

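Over 22 alternatives to the processing, 94 values of the main comparisons were recomputed. Shares were judged by their counting interval and counts of genes by a factor of 1.5. The contractile medians of the subsets have no interval and were judged by a fixed difference. By these limits 87 of the 94 values stayed and 7 moved further. Where 0 induced cells were G2/M, the value judged was a bound and not an estimate. Genes higher and lower by the limit were 596 and 648. They were 370 and 402 with a pseudocount of 20 CPM, 284 and 327 with a mean of at least 50 CPM, and 1386 and 1504 with no filter beyond 1 UMI. The log2 ratio of the G2/M shares, -4.20, was bounded at -1.21 with members under 10 keratin UMIs per 10000, since 0 of 18 induced cells were G2/M. This alternative and those on Rgs5 and on G2/M UMIs were chosen after seeing the data. Fjx1 in Myh11-high over Myh11-low induced members changed from -2.08 to 2.05 with at least 4 markers. Among 119 list genes past the limit, 61 stayed past it under each alternative run and 58 did not under at least 1. Of 4403 values of single genes between the libraries 3956 stayed within their counting interval and 434 moved. The other 13 were of genes past the limit that changed sign. A change of sign was counted only for genes past the limit, so those of other genes are not in the 13. Dcn, -2.53, was 1.45 with the rule applied after thinning, 0.45 without cells with markers of other cells and 0.81 with at least 20 Rgs5 UMIs per 10000. Over members with fewer than 2 G2/M UMIs, a limit set on G2/M genes themselves, the G2/M genes Birc5, Cenpf and Nusap1 were at 0.86, Cdk1 at 1.79 and Top2a at 1.4. The S phase genes Rrm2, Pclaf and Mcm7, which the limit does not use, were at 1.4, 0.53 and 0.39, and the median of the S phase list was -0.77. With fewer than 10 keratin UMIs per 10000, Fxyd3 was at -1.25 and Il6 at -0.63. The lower calls of Zeb1, Higd1b and Col1a2 were each lost under several alternatives, as was the higher call of Tgfb2. No paired analysis was possible because each group has 1 library and no result comes from a test. Induced members were shallower than control members, which limits what could be detected in them.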

Other observations

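Glycolysis and hypoxia genes were on the lower side in induced mural cells, with 4 of 16 lower, 2 higher and a median of -0.50. Gapdh was at 1341 and 615.8 CPM, control first, Pgk1 at 231.1 and 97.4 CPM and Pgam1 at 369.1 and 149.6 CPM, all enzymes of glycolysis. Each of these calls was lost under an alternative, with Gapdh at -0.92 and Pgk1 at -0.83 over members with fewer than 2 G2/M UMIs and Pgam1 at -0.62 over members with fewer than 10 keratin UMIs per 10000. P4ha2, which hydroxylates procollagen, was at 42.4 and 3.48 CPM. Ddit4, a stress-responsive inhibitor of mTOR signalling, was at 35.5 and 170.5 CPM, and Bnip3, a mitophagy receptor, at 6.84 and 38.3 CPM.

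Among 18 mural and mesenchymal transcription factors 3 were higher and 1 lower, with a median of 0.24. Id3 and Id1, inhibitors of helix-loop-helix factors and targets of BMP signalling, were at 32.8 and 292.2 CPM and at 46.5 and 163.5 CPM. Foxs1 was the other higher gene and Zeb1 the lower one. Prrx1 and Twist1, mesenchymal factors, were at 861.3 and 587.9 CPM and at 612.5 and 421 CPM. The interferon list had 2 of 12 genes higher, Ifitm1 and Irf1, 1 lower, Psmb8, and a median of 0.04. Over members with at least 20 Rgs5 UMIs per 10000 the Psmb8 ratio was -0.75, within the limit, and the Irf1 ratio was 0.88 with a pseudocount of 20 CPM. Beside the high level of Ifitm1 the list was thus near the median of all genes.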
